A study of Mus musculus with 189 samples.

Results

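The cells described here are 60 granzyme B-rich mast cell progenitors from the peritoneal cavity of the mouse, divided by their level of Mcpt8, the basophil protease mMCP-8. They were chosen among 95 single cells labelled basophil-mast cell progenitors (BMCPs). A cell was kept when it held at least 100000 reads on mouse genes, which 93 of the 95 did, and when Gzmb reached 100 CPM (reads of a gene per 1000000 reads on mouse genes in that cell). Of the 60 cells that passed, 37 had Mcpt8 at 100 CPM or more and are called Mcpt8-high, and 23 had less and are called Mcpt8-low. The whole series holds 189 cells.

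All cells came from 4 female C57BL/6 mice, with no genetic change or treatment stated and no age given. Both sorted populations were live, lineage-negative, c-Kit-positive and FcεRI-positive peritoneal lavage cells. BMCPs were gated as integrin β7 high with low side scatter, and the 94 mature mast cells, used here for reference levels, as integrin β7 low with high side scatter. Each cell was amplified and sequenced as a library of its own. The labels tie no cell to a mouse, so the Mcpt8-high and Mcpt8-low cells form 1 pooled sample each. The comparison therefore has no replicates and no test, and every difference below describes these cells. A pooled CPM is the summed reads of a group over its summed total, and its interval is an exact Poisson 95% interval. A share of cells has an exact Clopper-Pearson 95% interval. Both cover counting error only, and reads were amplified by PCR without molecular identifiers, so they are not independent molecules.

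Mast cells and basophils are the blood-derived cells that carry the high-affinity receptor for IgE and store histamine. Connective tissue mast cells of the mouse fill their granules with chymases, tryptases and carboxypeptidase A3 bound to serglycin and heparin, and they carry Mrgpr receptors for basic secretagogues. Basophils hold fewer granules, make mMCP-8 and mMCP-11 (encoded by Prss34), and are short-lived blood cells. Granzyme B is a serine protease best known from cytotoxic lymphocytes, and it is also made by some immature mast cells. Gzmb, Mcpt8, Mcpt4, Cma1 and Ctsg lie together in the chymase locus on chromosome 14.

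The cells were chosen by their measured levels of Mcpt8 and Gzmb, so those levels are a description only. The 3 lowest Mcpt8 values inside the Mcpt8-high group were 167, 285 and 338 CPM, and the 3 highest in the Mcpt8-low group were 14.4, 9.41 and 9.39 CPM. No cell thus lay between 14.4 and 167 CPM, though the cell at 167 CPM changes group at a threshold of 200 CPM. The 3 lowest Gzmb values among the 60 cells were 543, 948 and 1595 CPM, against 27.9, 10.3 and 10.2 CPM for the highest of the 33 BMCPs left out. Mcpt8 had a median of 4034 CPM in the Mcpt8-high cells, with a highest value of 36263 CPM. Beyond these values, and its use as an axis or cell order in figures, Mcpt8 is left out of the results.

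The depths of the 2 groups overlapped. Mcpt8-high cells held 344022 to 1862987 reads on genes (median 1180423) and Mcpt8-low cells 725234 to 2091665 (median 1355865). A median of 3755 genes was detected per Mcpt8-high cell and 3412 per Mcpt8-low cell. After each cell was thinned to 300000 reads these medians were 2882 and 2534. The mitochondrial share had medians of 0.887% and 0.796%, and the medians of reads per spike-in read were 529 and 481. One Mcpt8-low cell, number 55, had 24.7 reads per spike-in read.

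The promoters of 4 genes described below are shown first, 2 higher in Mcpt8-high cells and 2 lower: Plac8, which has the largest ratio of the broadly read genes, Scin, and the receptor genes Mrgprb2 and Gpr141b. Each is from the 250 bases before the RefSeq gene start on the minus strand of GRCm38, written 5′ to 3′. Of the 2 RefSeq starts of Plac8 the one farthest upstream was used. The last 40 bases before it lie inside the gene as GENCODE annotates it and are not printed, which leaves 210 bases. Capitals mark GATAA, the core letters bound by GATA factors, on either strand (TTATC on the other).
Plac8, chr5:100572246-100572455: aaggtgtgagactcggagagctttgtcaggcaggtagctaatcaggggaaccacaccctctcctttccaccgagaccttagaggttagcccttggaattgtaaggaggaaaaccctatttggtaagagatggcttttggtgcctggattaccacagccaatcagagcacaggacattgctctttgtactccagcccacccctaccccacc
Scin, chr12:40134229-40134478: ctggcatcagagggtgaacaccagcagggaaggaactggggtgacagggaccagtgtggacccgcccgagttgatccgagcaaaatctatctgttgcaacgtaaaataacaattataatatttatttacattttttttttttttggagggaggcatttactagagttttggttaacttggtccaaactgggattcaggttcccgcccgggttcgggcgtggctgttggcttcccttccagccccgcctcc
Mrgprb2, chr7:48558087-48558336: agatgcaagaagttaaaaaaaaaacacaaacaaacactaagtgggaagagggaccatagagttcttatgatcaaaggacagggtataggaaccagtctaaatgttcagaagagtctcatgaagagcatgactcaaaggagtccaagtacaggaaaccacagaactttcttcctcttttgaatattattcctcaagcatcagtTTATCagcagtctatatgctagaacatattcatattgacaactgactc
Gpr141b, chr13:19732952-19733201: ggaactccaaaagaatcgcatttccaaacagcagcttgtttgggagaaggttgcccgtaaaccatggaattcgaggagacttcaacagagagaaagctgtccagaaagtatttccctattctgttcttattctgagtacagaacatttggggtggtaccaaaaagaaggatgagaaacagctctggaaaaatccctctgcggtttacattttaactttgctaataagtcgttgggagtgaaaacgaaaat
The letters GATAA occurred once in the window of Mrgprb2 and in none of the other 3. Over all 32851 promoter windows of this length in the table, 22.6% held them. The share was 22.6% over 41 of the 49 broadly read genes lower in Mcpt8-high cells, 16.2% over 133 of the 169 higher, and 17.3% over the broadly read genes as a whole. These are letter matches in 1 window per gene start, and no binding was measured.

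Mcpt8-high cells read less of the mast cell granule programme and more of a set that includes Plac8, Scin, Nkg7 and several chemokine genes. None of the genes of the sort itself was past 2-fold, as was true of most broadly read genes. Among 10201 genes at 5 CPM or more in either group, 3311 (32.5%) were at least 2-fold higher in Mcpt8-high cells and 2010 (19.7%) at least 2-fold lower, and the median log2 ratio was 0.27. Of the genes past 2-fold 62.2% were higher, and 80.9% when scaled to the spike-ins, which moved the median to 0.99. With the 20 Mcpt8-high cells that read little Tpsb2 left out, that share was 47.8%, with 2623 genes higher and 2862 lower. All ratios are log2 of (Mcpt8-high CPM + 1) over (Mcpt8-low CPM + 1). Since many of these genes were read in few cells, a narrower set of 1599 genes was also used. In either group, these stood at 50 CPM or more pooled and at 10 CPM or more in at least 40% of its cells. Of these, 169 (10.6%) were higher and 49 (3.06%) lower by 2-fold or more. For these calls the higher group had to meet the cut, and the difference had to hold without its cell with most reads of the gene.

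**Figure D1:**
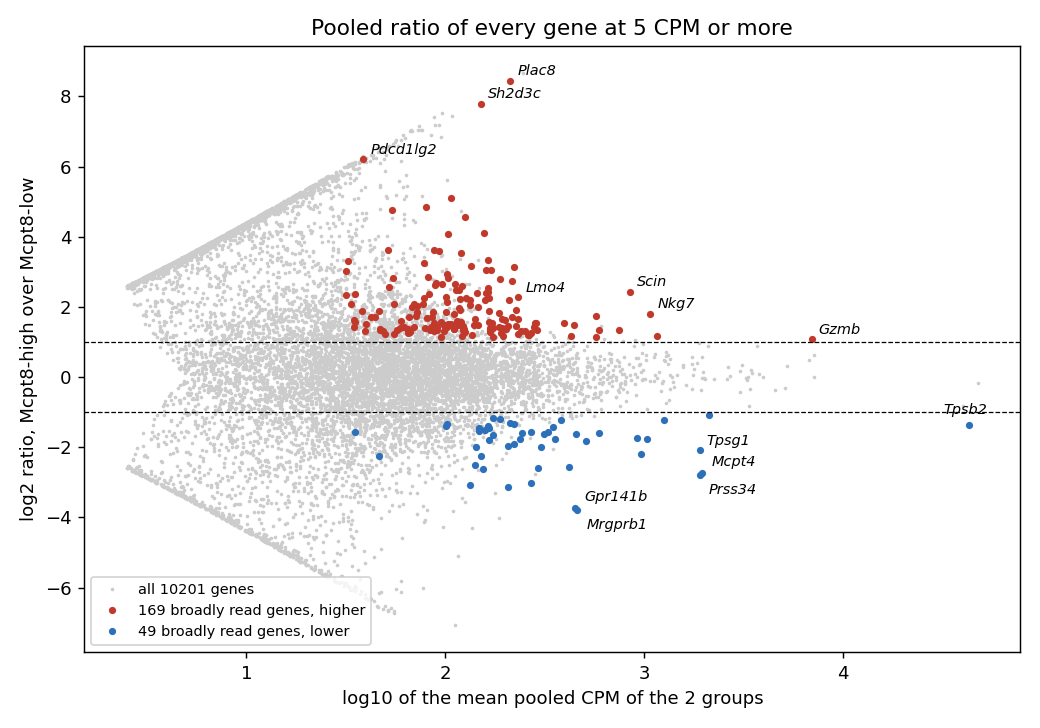
Pooled log2 ratio of Mcpt8-high over Mcpt8-low cells (vertical axis) against log10 of the mean pooled CPM (horizontal axis) for 10201 genes. Grey points are all genes, red and blue points the 169 and 49 broadly read genes past 2-fold, and dashed lines mark 2-fold. Plac8 stands highest among the coloured genes and Mrgprb1 lowest, while Tpsb2 is lower at a very high level.

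Plac8 had the largest ratio of the broadly read genes. It encodes a small cysteine-rich protein found in many blood cell progenitors, and lies on chromosome 5 at 100553725 to 100572245 (GRCm38, ENSMUSG00000029322). In the Mcpt8-high cells it ranged from 0 to 3324 CPM with a median of 170.1, and in the Mcpt8-low cells from 0 to 1.88 CPM with a median of 0. It reached 100 CPM in 22 of 37 Mcpt8-high cells (59.5%, interval 42.1 to 75.2%) and in 0 of 23 Mcpt8-low cells (0%, interval 0 to 14.8%). The groups overlap only through the Mcpt8-high cells with little or no Plac8. Pooled, it stood at 423 CPM (interval 417 to 429) against 0.221 CPM (interval 0.0889 to 0.456), a log2 ratio of 8.44. Outside the Gzmb-high cells, 2 of 33 Gzmb-low BMCPs and 0 of 94 mature mast cells reached 100 CPM.

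Scin, which encodes the actin-severing protein scinderin, was read in nearly all Mcpt8-high cells. Its values ran from 0 to 6508 CPM (median 1188) in Mcpt8-high cells and from 0 to 1284 CPM (median 1.06) in Mcpt8-low cells. It reached 100 CPM in 34 of 37 cells against 10 of 23, and in none of the Gzmb-low BMCPs or mature mast cells. The groups overlap, since the 10 Mcpt8-low cells with Scin lie within the range of the others. The log2 ratio was 2.43.

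Nkg7, a granule membrane gene of cytotoxic lymphocytes, followed the same order. It had a median of 1517 CPM (0 to 5664) in Mcpt8-high and 2.50 CPM (0 to 3445) in Mcpt8-low cells, and reached 100 CPM in 31 of 37 against 8 of 23 (log2 ratio 1.81). Of the 14 genes listed for cytotoxic lymphocytes only 3 passed 5 CPM, namely Nkg7, Gzmb and Lag3. Lag3, a checkpoint receptor, stood at 1161 against 624 CPM (log2 ratio 0.90), short of 2-fold. Within the Gzmb-high cells, Gzmb itself was higher with Mcpt8: the median was 8604 CPM (1595 to 22013) against 4321 CPM (543 to 10205), and the pooled log2 ratio was 1.08. The 2 ranges overlap widely, the ratio was 0.89 under TMM scaling, a trimmed mean of ratios, and Gzmb was also used to choose the cells.

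Further genes with the largest ratios were read in part of the Mcpt8-high cells and in nearly none of the Mcpt8-low cells. Sh2d3c, a signalling adaptor, reached 100 CPM in 12 of 37 against 0 of 23 cells, with pooled levels of 303 and 0.379 CPM. Pdcd1lg2, which encodes the PD-1 ligand PD-L2, reached 100 CPM in 12 against 0 cells. Its 2 reads in all Mcpt8-low cells gave 0.0632 CPM (interval 0.00765 to 0.228) against 77.6 CPM. No gene of those named for their ratio beyond Plac8 reached 100 CPM in more than 43.2% of the Mcpt8-high cells.

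Mapk14, the p38α kinase, stood at 209 against 5.15 CPM (log2 ratio 5.09), with 15 against 1 cells at 100 CPM. Anxa2, a calcium-dependent membrane-binding protein, stood at 298 against 16.2 CPM (4.12, 16 against 1 cells). Gpr183, the oxysterol receptor that guides lymphocytes, stood at 164 against 12.4 CPM (3.63, 11 against 1 cells). In Mcpt8-low cells each of these 3 genes came mostly from 1 or 2 cells, and without cell 84 the ratio of Mapk14 was 6.25, without cell 29 that of Anxa2 8.05 and without cell 34 that of Gpr183 5.62.

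Of the others by ratio, Sema4d (semaphorin 4D) had 4.85, Pum2 (an RNA-binding translational repressor) 4.77, Klhdc3 4.55, Ppp1r15a (a stress-induced phosphatase subunit) 4.09, Glrx5 (mitochondrial iron-sulfur assembly) 3.62 and Lta4h (leukotriene B4 synthesis) 3.59 as their log2 ratios. For Klhdc3 and Ppp1r15a 1 Mcpt8-low cell each held nearly all reads of that group, and without it the ratios were 7.52 and 7.41. By share of cells, Angpt1, a ligand of the Tie2 receptor, reached 100 CPM in 23 of 37 against 4 of 23 cells (log2 ratio 1.64). Mns1, known from sperm flagella, reached it in 22 against 3 cells (2.40). Gm10132 and Fam221b also entered by share, at 10 CPM and over in 31 against 8 and 19 against 1 cells, but at pooled levels of only 33.6 and 11.6 CPM.

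**Figure D2:**
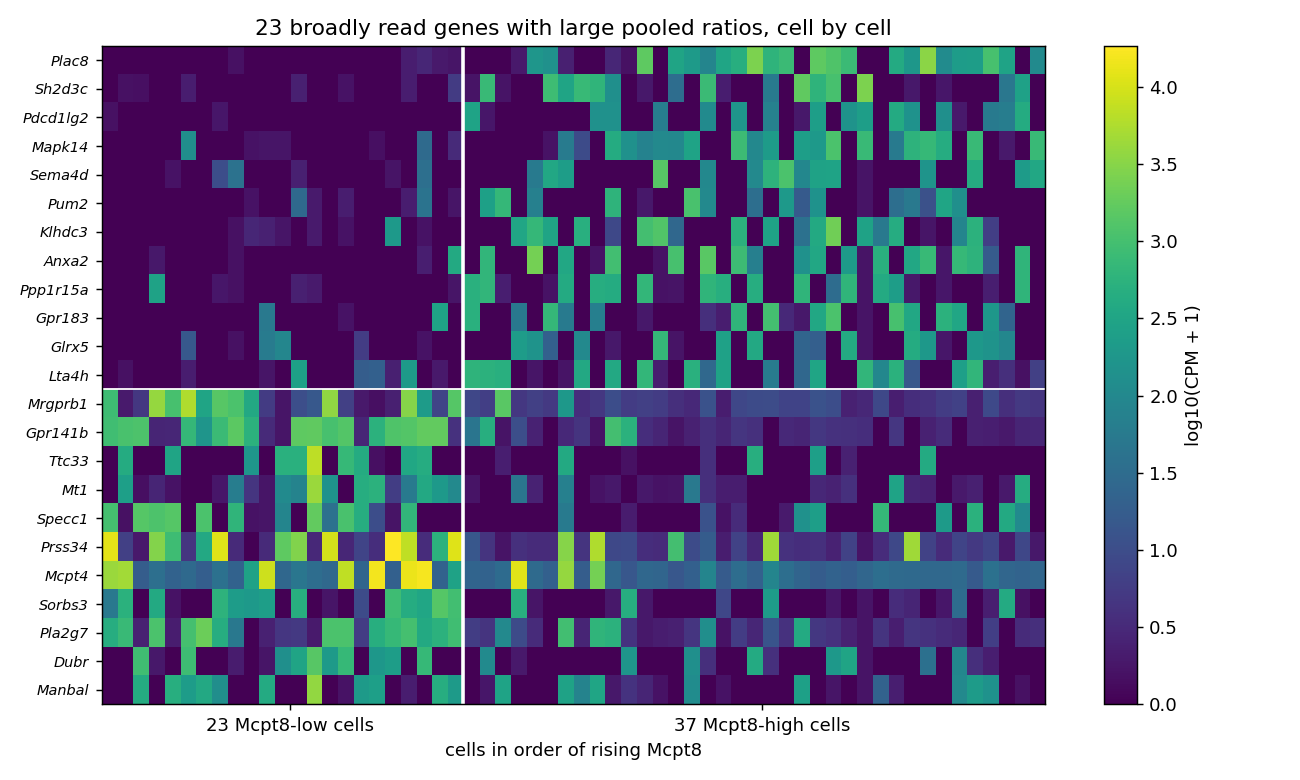
Level of 23 of the 24 broadly read genes with the largest pooled ratios (rows, 12 higher and 11 lower) in each of the 60 cells (columns, in order of rising Mcpt8), coloured by log10(CPM + 1). Most of the higher genes are dark in nearly all 23 Mcpt8-low cells and lit in part of the 37 Mcpt8-high cells, with no row lit in all of them.

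Reads on the granule genes took a smaller share of Mcpt8-high cells, though not every gene was lower. The 12 granule genes were Cma1, Cpa3, Srgn, Ndst2, Slc18a2, Tpsb2, Tpsab1, Mcpt4, Ctsg, Hdc, Mrgprb1 and Mrgprb2. The list thus also holds the receptor genes Mrgprb1 and Mrgprb2 and the synthesis enzymes Hdc and Ndst2. All passed 5 CPM and none was 2-fold higher. The last 7 named (58.3%, against 19.7% of all genes) were 2-fold lower, and the first 5 were within 2-fold. The median log2 ratio of the 12 genes was -1.15, against 0.27 over all genes. Together they took 3.66 to 20.6% of a Mcpt8-high cell's reads (median 8.77%) and 8.30 to 24.9% of a Mcpt8-low cell's (median 18.4%). Pooled shares were 10.8% and 18.1%, a difference of -7.26 percentage points. The medians in Gzmb-low BMCPs and mature mast cells were 27.9% and 28.4%, so the Mcpt8-high cells stood farthest from the mature level. Scaled to the spike-ins, the list's median was -0.45, and Tpsb2 (-0.68), Hdc (-0.91), Mrgprb2 (-0.39) and Ctsg (-0.52) kept their sign but were short of 2-fold, where the median of all genes was 0.99. That shortfall rests largely on cell 55: without it the same scaling gave -0.99 for the list, -1.30 for Tpsb2, -1.53 for Hdc, -0.997 for Mrgprb2 and -0.98 for Ctsg. The difference was -8.56 points among the progenitors numbered 1 to 48 in the labels and -4.54 among those numbered 49 to 95.

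Tryptase β2, encoded by Tpsb2 on chromosome 17 at 25366305 to 25369098 (GRCm38), split the Mcpt8-high cells in 2. All 23 Mcpt8-low cells held 5503 CPM or more of it (median 63979, highest 89717). Among the Mcpt8-high cells, 17 held 16449 to 103216 CPM and the other 20 held 91.4 to 194 CPM, with nothing between. Very abundant genes were read at a low level in all cells, as with Mcpt4, which was at 13.2 CPM or more in each of the 60. The source of this level was not tested, and values under 100 CPM of such genes are not counted as presence. Pooled, Tpsb2 stood at 23861 against 61767 CPM (log2 ratio -1.37). The pooled ratio thus averages cells at the level of the Mcpt8-low group and cells more than an order of magnitude below it.

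**Figure D3:**
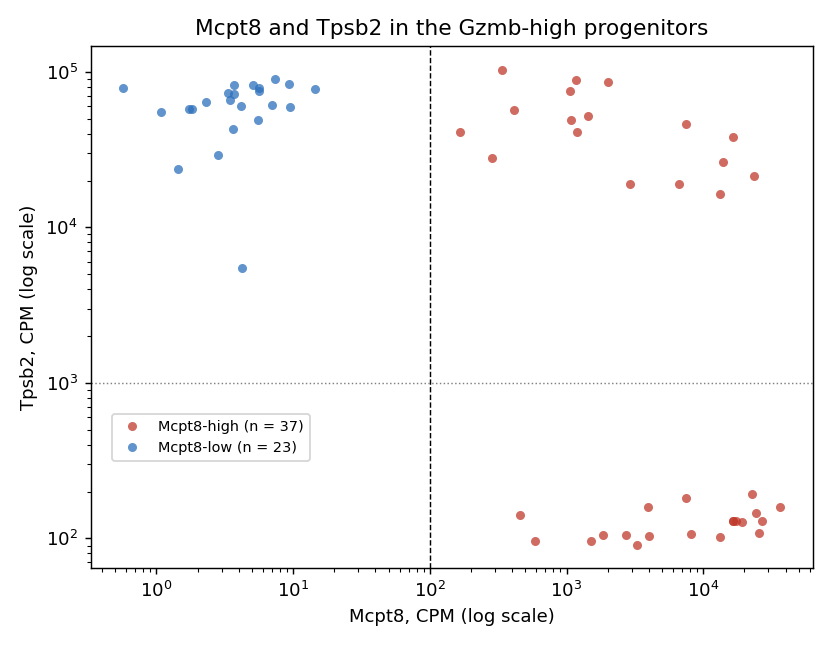
Tpsb2 (vertical log axis, CPM) against Mcpt8 (horizontal log axis, CPM) in the 60 Gzmb-high progenitors, with Mcpt8-high cells in red and Mcpt8-low cells in blue. The dashed line is the Mcpt8 threshold of 100 CPM and the dotted line marks 1000 CPM of Tpsb2. The corner of low Mcpt8 and low Tpsb2 is empty, while 20 of the 37 Mcpt8-high cells lie below the dotted line.

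The neighbouring tryptase gene Tpsg1, for the membrane-anchored tryptase γ, split the same cells: it reached 100 CPM in all 23 Mcpt8-low cells and in exactly the 17 Mcpt8-high cells with Tpsb2 over 1000 CPM. Its medians were 7.83 and 2679 CPM (log2 ratio -2.08). Mrgprb2, the mouse receptor for many basic drugs and peptides, reached 100 CPM in 23 of 23 Mcpt8-low cells and likewise in 17 of 37 Mcpt8-high cells (log2 ratio -1.09). Those 17 were not all the same cells, since 12 had all 3 genes, 5 had both tryptases without Mrgprb2, 5 had Mrgprb2 alone and 15 had none of the 3. Tpsab1, for tryptase α/β1, was read at 100 CPM in only 1 and 3 cells of the 2 groups, against 23 of 33 Gzmb-low BMCPs and 73 of 94 mature mast cells. Tpsb2 and Tpsab1 are close copies, so how reads were divided between them is uncertain.

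Within the Mcpt8-high cells Plac8 was read more often where the tryptases were low. This split was noticed in the values and is a description. The 20 cells with little Tpsb2 had a median Gzmb of 10689 CPM, against 6138 CPM in the 17 cells with Tpsb2. Gzmb was also used to choose the cells, so these 2 values are a description only. Plac8 reached 100 CPM in 17 of the 20 and in 5 of the 17, so the 2 genes overlapped in some cells. Lmo4 reached it in 17 and 8, Cx3cr1 in 11 and 4, and Ccl9 in 11 and 3. Scin, Nkg7 and Cd34 were read in most cells of both, at 100 CPM in 20, 19 and 15 of the 20 and in 14, 12 and 11 of the 17.

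The granule share had a median of 6.95% in the 20 cells, 13.8% in the 17 and 18.4% in the Mcpt8-low cells. Tpsb2 is itself a gene of that list, so part of the step from the 20 to the 17 cells follows from the split. The share without Tpsb2 was not computed. With the 20 cells left out, the pooled difference in granule share was -3.14 points, which also depends on Tpsb2. The 12 highest and 12 lowest genes by ratio were all still past 2-fold, but they were chosen by ratios that include the 17 cells. Of the broadly read genes called, 127 of the 169 higher and 36 of the 49 lower were then still past 2-fold, and the median of all genes was -0.02. Median depth was 1157030 reads in the 20 cells and 1180423 in the 17. Both label ranges were present in each, with 10 of the 20 and 9 of the 17 numbered 1 to 48.

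**Figure D4:**
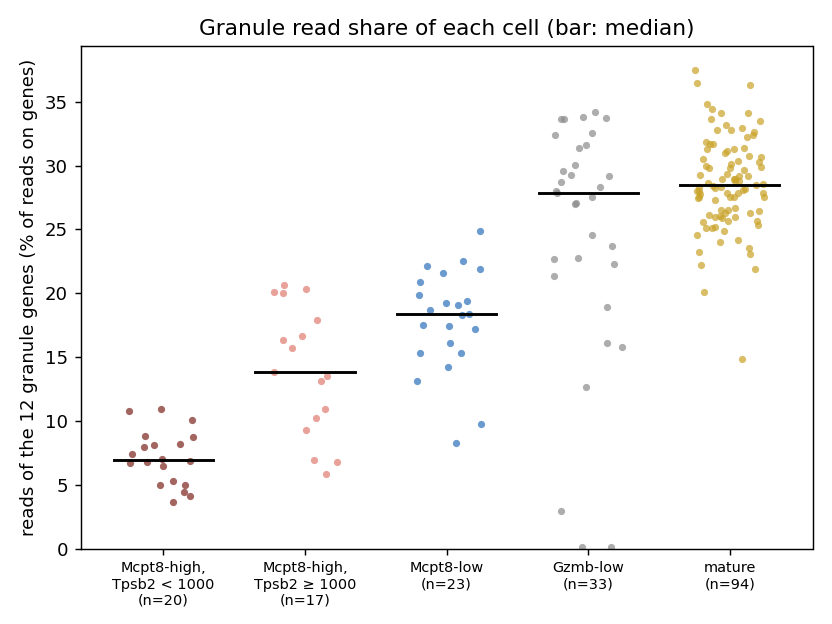
Share of reads on the 12 granule genes (vertical axis, % of reads on genes) in each cell, with the Mcpt8-high cells divided at 1000 CPM of Tpsb2. Points are cells and bars are medians, which step up from 6.95% through 13.8% and 18.4% to 27.9% in Gzmb-low and 28.4% in mature cells. Tpsb2 is among the 12 genes, so part of the first step follows from the division.

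Granule proteases other than the tryptases differed less evenly. Cma1, the chymase mMCP-5, was read in every cell, with a median of 26117 CPM (2700.3 to 60771) against 52651 CPM (18932 to 80429), a log2 ratio of -0.83. Cpa3, for carboxypeptidase A3, had near-equal medians of 45522 and 45636 CPM (-0.17, 0.53 when scaled to the spike-ins and -0.09 with cell 55 also left out). Mcpt4, for the chymase mMCP-4, reached 100 CPM in 3 of 37 against 9 of 23 cells, with medians of 25 and 35.4 CPM, so a few cells carry its log2 ratio of -2.74. That ratio was -3.85 without cell 69, -4.66 among cells numbered 1 to 48 and 0.22 among those numbered 49 to 95. Mcpt4 counts as broadly read through the cut at 10 CPM, which every cell passed at a level not counted as presence here. Ctsg, for cathepsin G, reached 100 CPM in 18 of 37 and 15 of 23 cells (-1.21).

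Genes that form histamine and serotonin were lower. Hdc, the histamine-forming decarboxylase, had a median of 14.6 CPM (0.777 to 1299) in Mcpt8-high and 624 CPM (1.82 to 3064) in Mcpt8-low cells, a log2 ratio of -1.60. Tph1, which forms the serotonin precursor, reached 100 CPM in 10 of 37 against 18 of 23 cells (-2.18). The vesicular transporter Slc18a2 had -0.50, the heparin sulfotransferase Ndst2 -0.66 and the granule proteoglycan Srgn 0.32 as log2 ratios, all within 2-fold. Scaled to the spike-ins, Slc18a2 and Ndst2 turned positive (0.19 and 0.04), but without cell 55 that scaling gave -0.38 and -0.55.

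Mrgprb1 and Gpr141b, 2 receptor genes read in every mature mast cell, had the largest deficits among broadly read genes. Mrgprb1 reached 100 CPM in 2 of 37 Mcpt8-high and 12 of 23 Mcpt8-low cells, and in 28 of 33 Gzmb-low BMCPs and 94 of 94 mature cells. Pooled levels were 61.8 CPM (interval 59.5 to 64.1) and 859.8 CPM (interval 849.7 to 870.1), a log2 ratio of -3.78, or -6.18 without cell 33. The Mcpt8-low cells thus divide on Mrgprb1 where the mature cells do not. Gpr141b, an orphan receptor, reached 100 CPM in 3 of 37 against 17 of 23 cells (-3.74) and in 94 of 94 mature cells.

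Mrgprx2 stood at -1.63 on the log2 scale. Pla2g7, which degrades platelet-activating factor, stood at -2.59, with 6 against 14 cells at 100 CPM. In mature mast cells Pla2g7 reached 100 CPM in 94 of 94 and Mrgprx2 in 55, so both were read in a larger share of mature than of Mcpt8-high cells.

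The remaining genes named by a lower ratio or share have mixed functions. Mt1, a metal-binding metallothionein, had a log2 ratio of -3.09 and Ttc33 -3.15, but cell 55 alone held 53.2% and 55.7% of their Mcpt8-low reads, and without it the ratios were -2.04 and -2.02. Specc1 had -3.03, the vinexin gene Sorbs3 -2.61, the non-coding RNA Dubr -2.50, Manbal -2.25 and the magnesium transporter gene Slc41a3 -1.81. Sorbs3 was -6.98 in cells numbered 1 to 48 and -0.35 in cells numbered 49 to 95, so its ratio rests on the first range.

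**Figure D5:**
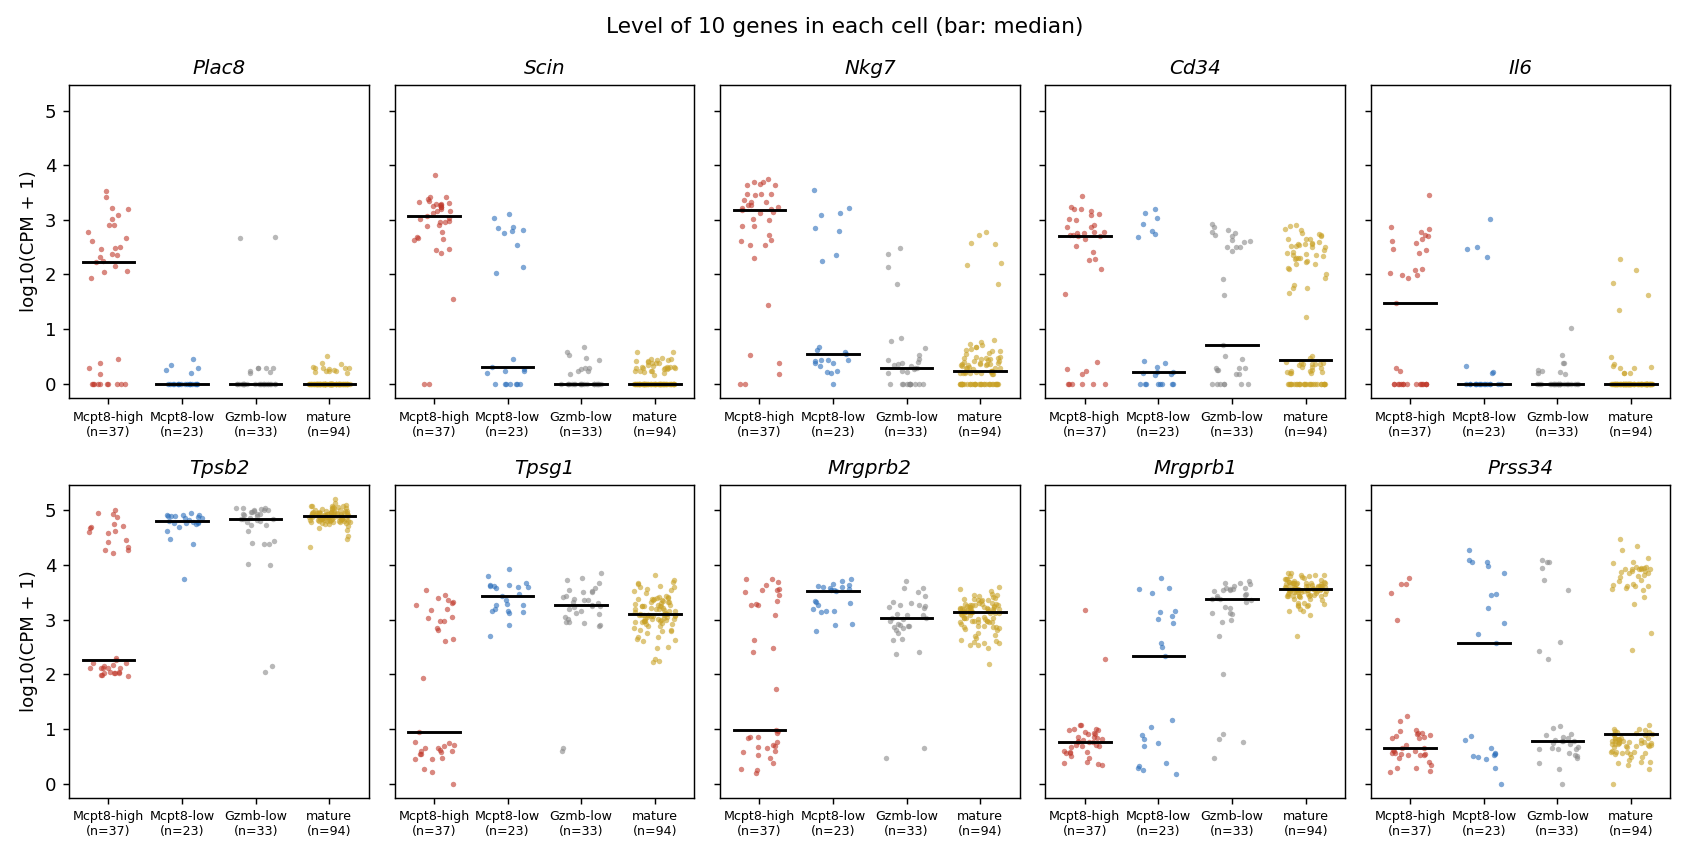
Level of 10 genes as log10(CPM + 1) in each Mcpt8-high, Mcpt8-low, Gzmb-low and mature cell, with points for cells and bars for medians. Plac8, Scin, Nkg7, Cd34 and Il6 are read in more Mcpt8-high cells, Tpsb2, Tpsg1 and Mrgprb2 split the Mcpt8-high cells and are high in all 23 Mcpt8-low cells, and Mrgprb1 and Prss34 split the Mcpt8-low cells.

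Genes of the basophil list did not follow Mcpt8 as a group. Of its 14 genes 11 passed 5 CPM; 2 were 2-fold higher (18.2%, against 32.5% of all genes) and 4 lower (36.4%, against 19.7%), with a median log2 ratio of -0.31. The sign of that median was not stable. It was 0.39 when scaled to the spike-ins (-0.16 with cell 55 also left out), 0.63 without cell 53, 0.49 without the 3 cells rich in B cell reads, 1.27 in cells numbered 1 to 48 and -1.72 in those numbered 49 to 95. Prss34, on chromosome 17 at 25298394 to 25300165, reached 100 CPM in 5 of 37 Mcpt8-high cells (13.5%, interval 4.54 to 28.8%) and in 12 of 23 Mcpt8-low cells (52.2%, interval 30.6 to 73.2%). Its medians were 3.43 and 376 CPM and its highest values 5811 and 18464 CPM (log2 ratio -2.78). None of the 20 Mcpt8-high cells with little Tpsb2 reached 100 CPM of Prss34.

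Cd200r3, an activating receptor of basophils and mast cells, reached 100 CPM in 13 of 37 against 16 of 23 cells (-1.77). Il6 stood at 236 against 58.4 CPM (1.99, 15 against 4 cells), and the tetraspanin gene Cd9 at 593 against 202 CPM (1.55, 30 against 11 cells). Il4 was read in both groups (180.3 against 107 CPM, 0.75), and so was Cyp11a1, the first enzyme of steroid synthesis (4547 against 5619 CPM, -0.31). Osm and Ccr3 were past 2-fold lower but rested on few cells: 1 Mcpt8-low cell, number 53, held every Ccr3 read among the Mcpt8-low cells, and the Ccr3 ratio became 2.54 when it was left out. Osm, at -1.22, was -0.36 without cell 26 and 5.17 in cells numbered 49 to 95. No read of Cebpa or Il13 was counted in either group, and Hgf had 1 and 18 reads.

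Transcripts of the gated proteins were read in both groups. None of the 5 was past 2-fold, and the median log2 ratio was 0.03. All 5 were among the broadly read genes. Of those only 10.6% were called higher and 3.06% lower, so finding none in 5 genes is near these shares. Kit had medians of 979.6 CPM (0 to 7431) and 1100.2 CPM (1.06 to 2138), Fcer1a of 2257 and 1980.2 CPM, and Itgb7 of 1475 and 882 CPM. Of 3 genes of mucosal mast cells, Mcpt1, Mcpt2 and Mcpt9, only Mcpt2 passed 5 CPM, and nearly all of its reads came from 1 cell in each group.

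Progenitor genes divided. Cd34, a surface sialomucin of blood progenitors, had a median of 512 CPM (0 to 2704) in Mcpt8-high and 0.617 CPM (0 to 1593) in Mcpt8-low cells, and reached 100 CPM in 26 of 37 against 7 of 23 (log2 ratio 1.10). Without cell 52 the ratio was 0.98, and under TMM scaling 0.90. It was not limited to progenitors, since 38 of 94 mature cells also reached 100 CPM. Meis1, a homeobox gene of stem cells, stood at 1.31. On the other side Myb stood at -1.43 (-0.92 without cell 55) and Ly6a, which encodes Sca-1, at -1.96. Of 11 progenitor genes 5 passed 5 CPM. Of these, 2 (40%, against 32.5% of all genes) were higher and 2 (40%, against 19.7%) lower, shares that rest on very few genes.

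Of 22 transcription factor genes 19 passed 5 CPM; 6 (31.6%) were 2-fold higher, which is near the 32.5% of all genes, none was 2-fold lower, where 19.7% of all genes were, and the median log2 ratio was 0.42. Gata2, required for both mast cells and basophils, had medians of 1163 and 1714 CPM (log2 ratio -0.24), and Gata1 had 0.14. Lmo4, a LIM-domain cofactor, had a median of 309 CPM against 2.82 and reached 100 CPM in 25 of 37 against 4 of 23 cells (2.28). Maf stood at 243 against 25.9 CPM (3.18, 16 against 4 cells).

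Bhlhe40 had 1.24 and Mitf, the mast cell differentiation factor, 1.05. A larger share of Mcpt8-low than of Mcpt8-high cells held 10 CPM of Mitf (15 of 23 against 16 of 37). Without cell 51 the Mitf ratio was 0.45. The other 2 past 2-fold rest on few cells. For Nfil3, 1 cell held 97.9% of the Mcpt8-high reads, and with that cell left out the log2 ratio was 0.71. For Tcf4, the ratio of 1.62 was 0.65 without cell 42 and -0.45 in cells numbered 49 to 95.

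Several chemokine genes were higher in Mcpt8-high cells. Of 18 cytokine and chemokine genes 11 passed 5 CPM, 6 (54.5%, against 32.5% of all genes) higher and 2 (18.2%, against 19.7%) lower, with a median log2 ratio of 1.88. The size of that median was not stable. It was 0.75 at 20 CPM or more, 0.71 with a pseudocount of 10 CPM and 1.05 as a mean over cells. In cells numbered 49 to 95 it was 3.12. Ccl9, a ligand of CCR1, reached 100 CPM in 14 of 37 Mcpt8-high cells and in 0 of 23 Mcpt8-low, 0 of 33 Gzmb-low and 0 of 94 mature cells. Its pooled levels were 489.9 CPM (interval 483 to 496) and 0.221 CPM (interval 0.0889 to 0.456), a log2 ratio of 8.65. That is above the ratio of Plac8, but Ccl9 was read in too few cells to be among the broadly read genes. Ccl3 stood at 209 against 33.6 CPM (2.60) and Ccl4 at 379 against 56 CPM (2.74), whereas Ccl2, the most abundant of the list, had 0.38. Tnf, at -1.82, was read at 10 CPM in 3 and 4 cells and was -0.61 without cell 45 and 5.84 in cells numbered 49 to 95.

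Of 23 integrin and homing receptor genes 16 passed 5 CPM, 8 of them (50.0%, against 32.5% of all genes) 2-fold higher and 1 (6.25%, against 19.7%) lower, with a median of 0.97. The lower gene was Itgb1, at -1.22 and at -0.88 without cell 45. Itga4, the partner of integrin β7, had a median of 239 CPM against 0.617 and reached 100 CPM in 24 of 37 against 6 of 23 cells (1.55). Ccr1 reached it in 17 against 2 cells (2.79, and 4.52 without cell 22) and Cx3cr1, the fractalkine receptor, in 15 against 1 (3.34, and 7.82 without cell 21). Ccr2 was read in 8 Mcpt8-high cells at 100 CPM and had 1 read in all Mcpt8-low cells. S1pr4 had 1.26, and Itgal and Itgae were also past 2-fold, read in few cells.

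Of 21 cytokine receptor genes 14 passed 5 CPM; 3 (21.4%, below the 32.5% of all genes) were 2-fold higher and none lower (median 0.52). Csf2rb, the common β chain for IL-3 and GM-CSF, stood at 595 against 261 CPM (1.18) and Il1rl1, the IL-33 receptor, at 900.1 against 448 CPM (1.00). Under TMM scaling the ratio of Csf2rb was 0.99 and that of Il1rl1 0.81. Il9r was read in few cells (1.81, and 0.72 without cell 2). The list of eicosanoid genes, which does not hold Lta4h, had no 2-fold higher member among 7 that passed 5 CPM and 3 lower (42.9%, against 19.7% of all genes), Ptgs1, Pla2g4a and Ltc4s. The abundant Alox5 (0.34) and Hpgds (-0.37) were within 2-fold, and Ptgs1 reads came from 2 Mcpt8-low cells.

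The other lists rest on thin reading, and their shares are to be read against 32.5% higher and 19.7% lower over all genes. Of 12 heparin synthesis genes at 5 CPM, 6 (50.0%) were higher and 2 lower (median 0.80). That median was 0.19 without the 3 cells rich in B cell reads and -0.04 without the Mcpt8-high cells with little Tpsb2. Of 9 inhibitory and Fc receptor genes, 1 (11.1%) was higher and 2 (22.2%) lower, and the median was near 0. Of 13 immediate early genes, 4 (30.8%) were higher and 1 lower (median 0.22), with Egr1 at 100 CPM in 3 Mcpt8-high cells.

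Of 15 S phase genes, 7 (46.7%) were higher and 1 lower (median 0.58). Mcm3 and Mcm7, subunits of the replicative helicase, reached 100 CPM in 9 against 1 and 9 against 0 cells. Of 13 G2/M genes, 10 (76.9%) were higher and 1 lower, with a median of 3.12, but this became -0.15 in cells numbered 49 to 95. Cell 48 held 99.2% of the Top2a reads of its group, without which the Top2a ratio was -1.04, and the median G2/M share of reads per cell was 0.0186% in Mcpt8-high and 0.0305% in Mcpt8-low cells. Of 64 ribosomal protein genes at 5 CPM, 19 (29.7%) were higher and 4 (6.25%) lower (median 0.76), and 1 of the 18 that were broadly read was past 2-fold, with median read shares per cell of 0.415% and 0.296%.

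Markers of other cell types were absent or read in few cells, apart from genes that the cells described here also read. Of 12 macrophage genes, 10 had no read in Mcpt8-high and 11 none in Mcpt8-low cells, and nearly all reads came from Apoe, which was lower in Mcpt8-high cells (-0.82) and was also read in 94 of 94 mature mast cells. Neutrophil and erythroid genes had at most 1.25 CPM pooled over their lists. B cell genes took a median of 2.82 and 6.59 CPM per cell, with highest values of 1579 and 7444 CPM. Their reads were concentrated in Mcpt8-high cell 16 and Mcpt8-low cells 53 and 55. Without these 3 cells the granule difference was -7.90 points. The 24 genes named by ratio, which were chosen largely on the same cells, were still past 2-fold. By contrast, the ratios of Ccr3, Extl3, Kif23 and Klf2 turned their sign. Most reads of the T cell and megakaryocyte lists came from Lat (0.19) and Itga2b (-0.25). Of 5 T cell genes at 5 CPM, 3 (60%, against 32.5% of all genes) were 2-fold higher and 1 (20%, against 19.7%) lower. The 3 were Lck, Trbc1 and Thy1, read at 10 CPM in 2.70%, 5.41% and 5.41% of the Mcpt8-high cells and in no Mcpt8-low cell. The list's median of 2.76 depended on the pseudocount, with 0.66 at 10 CPM and 5.88 at 0.1 CPM. Without the Mcpt8-high cells with little Tpsb2 it was 0.05. The eosinophil list stood at 4.88 against 53.4 CPM pooled, nearly all from Ccr3, with a highest cell at 805 CPM among the Mcpt8-low cells. The part of the T cell and eosinophil reads in other results was not tested.

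The cells were also placed by their whole profile, with Mcpt8 left out, in 10 principal components over 1000 variable genes. Of the 10 nearest neighbours, a mean of 68.1% belonged to the same group for a Mcpt8-high cell, where group size alone gives 61.02%, and 58.3% for a Mcpt8-low cell, where it gives 37.3%. The first component held 5.16% of the variance. On it 19 Mcpt8-high cells lay beyond every Mcpt8-low cell and 1 Mcpt8-low cell beyond every Mcpt8-high cell, so the groups were shifted but mixed. That Mcpt8-low cell was number 55, with 24.7 reads per spike-in read and 2479 genes detected. The cell at the other end, number 67 of the Mcpt8-high group, had 4453 genes detected. How far the component follows the number of genes detected was not tested.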

How the data were processed

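Single-cell libraries of 95 BMCPs and 94 mature mast cells were made with 23 cycles of PCR and sequenced as 50 bp single-end reads, per the labels' protocols. The deposited table holds whole-number read counts per gene with 92 ERCC spike-ins and summary rows. The submitters' processing notes name GSNAP, HTSeq 0.5.3p3 and mm10, without their roles. Of the table's reads, 17.5% fell on no feature, 3.30% were ambiguous and 15.3% not aligned, and these rows were left out. Symbols and positions of 45229 of 46078 gene identifiers came from GENCODE M21, and promoter sequences from RefSeq (GRCm38.p6).

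Reads were summed per group and divided by the total on mouse genes. Log2 ratios used a pseudocount of 1 CPM and genes at 5 CPM or more in either group. A difference past 2-fold was counted, and no test was made. The calculation was tested on simulated data. Genes were named by the 12 largest ratios and 8 largest differences in share of cells each way, all members of 7 lists, and members of the other lists past 2-fold at 20 CPM or with the highest levels. Lag3, Ltc4s, Itgae, Lck, Trbc1 and Thy1 were named after their values were seen. Some items that this rule picks are not reported here. Members and lists were chosen with earlier results of these data known. Whether progenitor numbers mark plates is not given in the sources used here. Strand in counting is likewise not given, so antisense neighbours cannot be told apart, and close copies among the tryptase, chymase, granzyme and Mrgpr genes may share reads. Alternatives were TMM scaling in edgeR 4.0.16, spike-in scaling, other thresholds and leaving out each cell.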

Additional observations from a re-analysis of the deposited data

How the results depend on the processing

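Direction and threshold held for most gene ratios under most alternatives, with exceptions that include those below. Medians of several lists changed sign. For example, the eicosanoid median of -0.82 was 0.28 without cells at 100 CPM of Mrgprb1. The immediate early median of 0.22 was -0.38 in progenitors numbered 1 to 48. The median of the progenitor genes, 0.16, was -0.19 with Mcpt8 at 200 CPM. Scaled to the spike-ins, 5138 genes were 2-fold higher and 1215 lower, and the median of all genes moved from 0.27 to 0.99. Without cell 55 these were 3529, 1841 and 0.38. TMM scaling gave a median of 0.07. Of the genes past 2-fold, 62.2% were higher, 55.9% under TMM, 80.9% under spike-in scaling, and 47.8% (2623 higher, 2862 lower, median -0.02) without Mcpt8-high cells under 1000 CPM of Tpsb2. At 20 CPM or more 2067 were higher. With Mcpt8 at 200 CPM, 154 of the 169 broadly read higher genes and all 49 lower were still past 2-fold. Of the 12 lowest genes by ratio, 10 were past 2-fold in progenitors numbered 49 to 95. Without cells at 100 CPM of Mrgprb1, 11 were. The 12 highest were past 2-fold in both settings. Leaving out each cell in turn gave 3253 to 3409 higher, 1983 to 2058 lower, and a granule difference of -7.61 to -6.82 points. That difference was -7.49 with Mcpt8 at 200 CPM, -7.86 without cells between 10 and 1000 CPM of Mcpt8, -7.11 with Gzmb at 1000 CPM, -7.59 as a mean over cells, -7.22 at 500000 reads or more, -7.50 without cells at 100 CPM of Mrgprb1, -7.90 without the 3 cells rich in B cell reads, -8.56 and -4.54 in progenitors numbered 1 to 48 and 49 to 95, and -3.14 without Mcpt8-high cells under 1000 CPM of Tpsb2. The last 3 and the spike-in scaling without cell 55 were chosen after seeing the data. The value of -3.14 leaves out cells by Tpsb2, which is itself a granule gene.
No paired analysis was possible, because the labels tie no cell to a mouse and the groups hold different cells. What the progenitor numbers mark is not given in the sources used here.

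Some log2 ratios of thinly read genes reversed, and the cause was not tested. In progenitors numbered 49 to 95 the ratio was 3.67 for Havcr2, 0.22 for Mcpt4, 5.17 for Osm, -0.61 for Pcna, -0.37 for Rrm1, -0.45 for Tcf4 and 5.84 for Tnf, and the medians were -0.15 for G2/M and -1.72 for basophil genes, the latter 1.27 in those numbered 1 to 48. In those numbered 1 to 48 it was 3.42 for Ccr3, -4.22 for Dusp1 and -0.38 for Zfp36. Without the cells rich in B cell reads it was 2.58 for Ccr3, -2.75 for Extl3, 0.37 for Kif23 and 2.91 for Klf2, and Kif23 had 0.54 under spike-in scaling without cell 55. Without cells at 100 CPM of Mrgprb1 it was 4.05 for Cd4 and 0.48 for Pla2g4a, and 0.29 for Mrgprb1 by construction. Without Mcpt8-high cells under 1000 CPM of Tpsb2 it was 0.080 for Cd33 and -0.74 for Top2a. Leaving out 1 cell at a time gave -5.66 to 2.54 for Ccr3, -2.61 to 4.87 for Extl3, -6.57 to 2.81 for Havcr2, -1.38 to 0.43 for Kif23, -3.54 to 2.88 for Klf2 and -1.04 to 4.98 for Top2a.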
